A study of Mus musculus with 6 samples.

Results

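Oxidative phosphorylation runs on 5 protein complexes of the inner mitochondrial membrane, and most of their subunits are encoded in the nucleus. The 87 protein-coding mouse genes described here were chosen by symbol from the GENCODE M21 annotation of the mm10 build: Ndufa, Ndufb, Ndufc, Ndufs and Ndufv genes (the Ndufaf assembly factors left out), Sdha to Sdhd, Uqcr genes, Cyc1, the Cox4 to Cox8 families and Atp5 genes, with no gene of the mitochondrial genome. The symbol rule itself used no expression values, but the set was chosen with earlier results of these data known. By complex there were 36 genes for complex I, 4 for complex II, 9 for complex III, 20 for complex IV and 18 for complex V, with Ndufa4 and Ndufa4l2 placed in complex IV. Of the 31266 genes quantified, 86 were subunit genes, and 80 of these were among the 12045 genes tested, those that averaged at least 1 FPKM across libraries. FPKM is the density of sequenced fragments per length of transcript and per size of library. The 6 genes under that mean were Cox4i2, Cox7a1, Cox7b2, Cox8b, Cox8c and Ndufa4l2. A second annotated Atp5o gene shares nearly all of its exonic bases with other genes and got no value.

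The libraries came from oligodendrocyte precursor cells (OPCs), glial progenitors that divide and later form myelinating oligodendrocytes. The source was C57BL/6 spinal cord at postnatal day 0.5, from which cells carrying A2B5, a surface epitope of glial precursors, were pulled down with magnetic beads. There were 3 libraries from cells labelled Gde3 KO and 3 from cells labelled Gde3 WT. All 6 cultures were plated on poly-L-lysine and laminin at 150000 cells per cm2 and held for 16 h in the same proliferative medium, which had PDGF (10 ng/mL), CNTF (10 ng/mL), forskolin (5 µM), sodium pyruvate (1 mM), B27, N2 and antibiotic. The series title concerns GDE3, a membrane enzyme that cleaves glycolipid anchors of surface proteins, in OPC proliferation through soluble CNTF receptor alpha. The labels do not give the deleted part of the gene, the cells in which it is deleted, or whether the libraries came from separate animals or litters. The p-values therefore rest on library-to-library spread, part of which may be technical.

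In the electron transport chain, complex I takes electrons from NADH and complex II from succinate. Both pass them through ubiquinone to complex III, then through cytochrome c to complex IV, which reduces oxygen. Complexes I, III and IV pump protons out of the matrix, and complex V, the ATP synthase, uses the returning protons to make ATP. Many of these subunits have tissue-restricted isoforms, mainly in muscle, heart, lung or testis. Promoters of the nuclear subunit genes are known for binding sites of nuclear respiratory factor 1 (NRF1), of ETS-family factors such as GABP, and of YY1.

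Promoter windows were taken from RefSeq on GRCm38.p6 as the stretch from 250 bases before to 50 bases after an annotated start. Of 86 subunit gene symbols, 69 matched, with 74 windows. The letters searched were GCGCA, any base and GCGC (NRF1), CCGGAAG (ETS) and AAGATGG (YY1). They were looked for on both strands, and matches to different motifs overlapped 0 times in these windows. The NRF1 letters stood in 18 of the 74 windows (24.3%), against 4.603% of all 32851 windows in the table. The ETS letters stood in 16 windows (21.6%, against 8.86%) and the YY1 letters in 11 (14.9%, against 6.34%). The background holds the windows of all 27025 genes in the table, whether or not they are expressed in these cells. It was not matched to the subunit genes for base composition or level. At least 1 of the 3 motifs was present in 38 of the 69 genes, and 4 genes, Atp5h, Atp5k, Cox6a1 and Sdhd, had both NRF1 and ETS letters. Shown are the 250 bases before the start for 2 of these 4 genes and for Sdha, which like Ndufb4 had 3 NRF1 matches. Each is printed 5′ to 3′ on the gene's minus strand, with capitals on the NRF1 letters and on the ETS letters, which read CTTCCGG on this strand. Cox6a1 lies at chr5:115348959-115349208, Atp5h at chr11:115419920-115420169 and Sdha at chr13:74350241-74350490.
Cox6a1: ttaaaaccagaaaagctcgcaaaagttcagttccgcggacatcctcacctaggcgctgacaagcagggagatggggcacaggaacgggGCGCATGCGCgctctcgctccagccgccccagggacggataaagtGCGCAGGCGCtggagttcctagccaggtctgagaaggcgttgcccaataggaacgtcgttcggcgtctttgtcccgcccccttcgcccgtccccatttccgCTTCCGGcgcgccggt
Atp5h: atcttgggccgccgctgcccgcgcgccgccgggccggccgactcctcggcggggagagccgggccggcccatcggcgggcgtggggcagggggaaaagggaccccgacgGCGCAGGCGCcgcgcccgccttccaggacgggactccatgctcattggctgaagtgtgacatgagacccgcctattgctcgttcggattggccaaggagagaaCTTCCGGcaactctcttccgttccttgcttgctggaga
Sdha: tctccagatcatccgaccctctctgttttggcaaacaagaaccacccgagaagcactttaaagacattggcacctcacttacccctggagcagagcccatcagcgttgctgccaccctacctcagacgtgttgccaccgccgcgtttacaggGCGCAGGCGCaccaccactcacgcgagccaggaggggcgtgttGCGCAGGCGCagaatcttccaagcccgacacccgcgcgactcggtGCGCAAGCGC
A match is a description of these letters and not a measured binding site.

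Each library had its own transcript assembly of 32098 to 56807 transcripts, with a relative depth, read from coverage per unit of FPKM, of 0.759 (WT replicate 1) to 1. Transcripts of WT replicate 1 were short, at a median of 438 nt, where the other 5 medians were 1173 to 1830 nt. Gdpd2, which encodes GDE3, had 0.667, 1.497 and 1.78 FPKM in the KO libraries when transcripts of any length were counted. The WT libraries had 2.05, 2.79 and 2.85 FPKM, all above KO, but WT replicate 1 was at 0 when only transcripts of 300 nt or more were counted. The 15 OPC markers, Pdgfra among them, summed to 1245 to 1742 FPKM per library, so the labelled cell type was present in all 6. Astrocyte, oligodendrocyte, neuron and microglia markers were also measured, at sums of 186 to 742, 482 to 633, 151 to 328 and 90.5 to 289 FPKM. These are bulk values, in which fewer cells of a type and less RNA per cell cannot be told apart. Replicate 1 of both genotypes stood apart from the other 4 libraries. Mki67, a marker of cycling cells, was at 14.2 and 12.1 FPKM there against 67.4 to 73.7 in the others. Of 16 proliferation markers it differed most, and 7 of the 16 were higher in replicate 1. The sums of the 16 were 792 to 796 FPKM in replicate 1 against 903 to 1130 in the others. The labels' sample codes share a middle number of 3 for both replicate 1 libraries and of 4 for the other 4, and they do not say what that number means.

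The subunit genes were among the most highly expressed genes of these cells. To compare genes with one another, FPKM was averaged over the coding bases of each gene's principal transcript, called the coding-base level here. It counts transcripts of any length, and those under 300 nt held 98.0% to 99.96% of the summed FPKM of a library. The median coding-base level was 151 FPKM for the 81 subunit genes at 1 FPKM or more. It was 12.1 FPKM for all 12268 genes at that level, and 73 of the 81 lay above their 90th percentile. Over exonic bases, with transcripts of 300 nt or more, the median was 110 FPKM for the tested subunit genes against 9.82 for all genes tested. The complex medians of the coding-base level were 117 FPKM for complex I, 113 for complex II, 230 for complex III, 320 for complex IV and 260 for complex V. The highest gene was Atp5b, the catalytic beta subunit of the ATP synthase, at 853 ± 96.3 FPKM (SD, n = 6 libraries). Below it came 4 subunits of cytochrome c oxidase whose coding-base levels differed by less than their spread: Cox6a1 at 556 ± 173, Cox6b1 at 524, Cox8a at 520 ± 254 and Cox7c at 512 FPKM. Atp5a1, the alpha subunit that alternates with beta in the catalytic head, stood at 485 FPKM, and Atp5c1, the gamma subunit of the rotating stalk, at 247 FPKM.

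**Figure D1:**
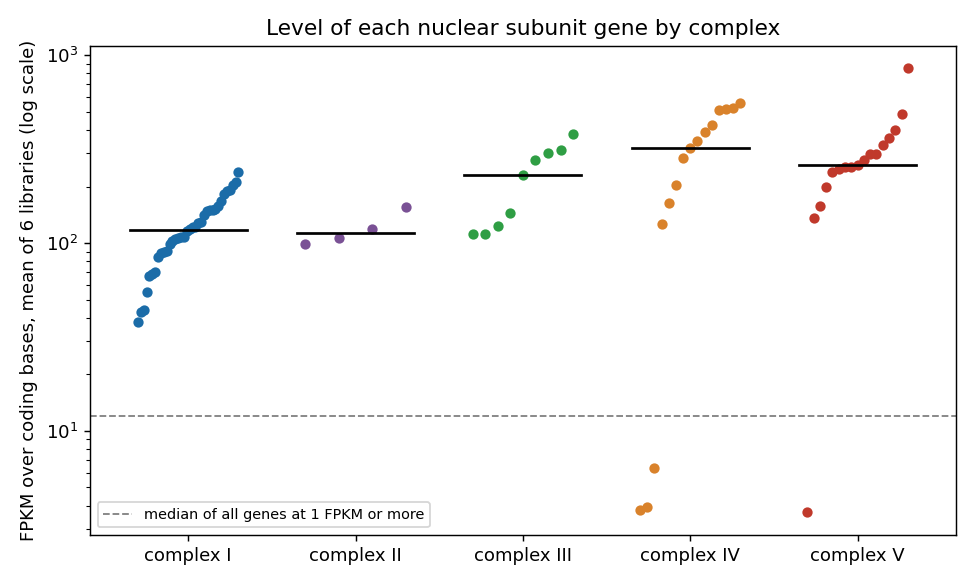
Coding-base level of each nuclear subunit gene (points, mean FPKM of 6 libraries, log scale) by complex, for the 81 genes at 1 FPKM or more, with the complex median as a black bar and the median of all 12268 genes (12.1 FPKM) as a dashed line. Complexes III, IV and V have medians of 230 to 320 FPKM, above the 117 and 113 FPKM of complexes I and II, and 4 genes lie below the dashed line.

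Within complex I the coding-base level ran from 38.2 FPKM (Ndufv3, an accessory subunit of the NADH-binding tip) to 238 FPKM (Ndufa12). The 7 core subunits, which carry the flavin, the iron-sulfur clusters and the quinone site, ranged from 43.1 FPKM for Ndufs1 to 149 FPKM for Ndufv2. Ndufv1, the flavoprotein, was at 70.3, Ndufs7 at 68.0, Ndufs3 at 84.1 and Ndufs8 at 99.1 FPKM. The 4 succinate dehydrogenase genes of complex II lay close together. Sdha, the flavoprotein, was at 107 FPKM, Sdhb, the iron-sulfur subunit, at 155 FPKM, and the membrane anchors Sdhc and Sdhd at 119 and 98.6 FPKM. In complex III the redox subunits Cyc1 (cytochrome c1, 145 FPKM) and Uqcrfs1 (the Rieske iron-sulfur protein, 112 FPKM) stood below the small subunits Uqcrq (382 FPKM), Uqcr10 (315 FPKM) and Uqcrh (303 FPKM).

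Several sets of genes for isoforms of the same subunit differed widely in coding-base level. Cox4i1 was at 424 FPKM and Cox4i2, the lung isoform, at 0.13. Cox6a1 was at 556 and its heart and muscle counterpart Cox6a2 at 3.78 FPKM. Cox6b1 was at 524 and the testis isoform Cox6b2 at 6.34 FPKM. Cox8a was at 520 FPKM, while Cox8b and Cox8c were listed at 0 in all 6 libraries, as was Cox7b2, against 388 FPKM for Cox7b. Cox7a2 had 164 FPKM and the related Cox7a2l 126 FPKM. Cox7a1, the muscle isoform, had a mean of 3.93 FPKM that rested mainly on 18.6 FPKM from short fragments in WT replicate 1, against 0 to 3.75 in the other libraries. Ndufa4 was at 285 and Ndufa4l2 at 0.58 FPKM. The 3 genes of the ATP synthase c-ring were close together: Atp5g1, Atp5g2 and Atp5g3, which encode the same mature c subunit, were at 254, 254 and 297 FPKM. Atp5s, the coupling factor B gene, was the lowest of complex V at 3.68 FPKM.

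The comparison of KO with WT asks whether loss of GDE3 goes with a change in the subunit genes. None was called: 0 of 80 had a limma adjusted p under 0.05, where 0.00830% of all 12045 genes (1 gene) did. The count was also 0 at an unadjusted p under 0.05, which 1.62% of all genes reached (2 with replicate number as a block, against 4.23% of all genes). For 32 genes the KO difference was above 0 and for 48 below, with a median of -0.06 on the log2(FPKM + 1) scale against -0.005 for all genes tested. The 3 KO libraries lay all above the 3 WT libraries for 0 subunit genes and all below for 0, where 2.03% and 3.03% of all genes did so. The complex medians were -0.03, 0.03, -0.05, -0.12 and -0.09 for complexes I to V. Among the 77 tested subunit genes above 0 in every library, 65 had a difference within 0.25 log2 units of 0, and the median SE of a subunit gene's difference was 0.21. The median's sign rested on single libraries: it turned to 0.06 when WT replicate 1 was left out and to 0.04 when KO replicate 2 was, and it was -0.008 without both replicate 1 libraries.

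For Atp5b the KO libraries (replicates 1 to 3) had 858, 698 and 727 FPKM over the gene's exonic bases and the WT libraries 906, 725 and 660 FPKM. The groups overlapped, and the log2 difference was 0.002 ± 0.20 SE. Ndufs1, the largest core subunit of complex I, had 36.3, 37.7 and 42.1 FPKM in KO and 39.2, 32.4 and 44.8 in WT. Sdha had 80.1, 73.9 and 96.9 FPKM in KO and 83.2, 79.5 and 91.0 in WT. In both genes the genotypes overlapped and the difference was under 0.03 log2 units in size, with SEs of 0.15 and 0.14. For all 16 core subunits of the naming rule (7 of complex I, Sdha to Sdhd, Cyc1, Uqcrfs1 and the ATP synthase alpha, beta and gamma subunits) the KO difference lay between -0.25 (Ndufs8) and 0.27 (Sdhd), with limma adjusted p = 1.00 each. The 0.27 of Sdhd rested on 42.4 FPKM in WT replicate 2 against 97.3 and 109 FPKM in the other WT libraries, and it was -0.15 without that library.

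The genes with the smallest unadjusted p for genotype in each complex had differences that did not pass. Ndufb9, a LYR-motif accessory subunit of complex I, had 60.3, 83.1 and 32.3 FPKM in KO and 236, 68.2 and 96.5 in WT. The 236 FPKM of WT replicate 1 was the highest, and the genotypes overlapped (log2 difference -1.07 ± 0.54 SE, limma adjusted p = 1.00). Ndufa5, also of complex I, had 94.0, 71.1 and 76.2 FPKM in KO and 121, 83.4 and 91.0 in WT (-0.28 ± 0.19). With the replicate number as a block, KO was below WT in all 3 pairs of Ndufa5 (unadjusted p = 0.0192) and of Ndufa13 (0.00671), the only 2 subunit genes under 0.05, where 4.23% of all genes were under it (limma adjusted p = 0.809 for both). Ndufa13, a complex I subunit also known as GRIM-19, had 143, 105 and 61.5 FPKM in KO and 181, 163 and 98.4 in WT. In complexes II to V the genes were Sdhd (0.27), Sdhb (0.08), Uqcr10 (-4.96), Cyc1 (-0.13), Cox7c (-0.24), Cox8a (-0.53), Atp5s (0.25) and Atp5f1 (-0.14), as log2 differences.

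Uqcr10, a small subunit of complex III (ENSMUSG00000059534.8, mm10 chromosome 11, 4701973 to 4704342, minus strand), owed its value to transcript length. Counting only assembled transcripts of 300 nt or more, KO replicate 1 had 257 FPKM, KO replicates 2 and 3 were listed at 0, and WT had 250, 150 and 204 FPKM. With transcripts of any length the KO values were 257, 213 and 225 FPKM, and the difference was 0.23 in place of -4.96. Cox7b, a small subunit of complex IV, was likewise listed at 0 in KO replicate 3 and WT replicate 3, where transcripts of any length gave 129 and 110 FPKM. Its other libraries had 122 and 150 FPKM in KO and 212 and 158 FPKM in WT. These were the 2 subunit genes at a mean of 5 FPKM or more that were listed at 0 in a library, and in both cases the 0 marks short assembled pieces and not missing RNA.

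Replicate 1 was then compared with replicates 2 and 3, since both replicate 1 libraries stood apart. In a fit with genotype as a second term, 77 of 80 subunit genes lay above 0 in replicate 1, where 50.6% of all genes did, with a median of 0.36 log2 units against 0.005 for all genes, but with quantile normalization it was 61 of 80 with a median of 0.14 and 16 genes changed sign. With FPKM summed over a gene's transcripts in place of the average over bases, the median of all genes was 0.53 and lay above the 0.38 of the subunit genes, so that the order of these medians turned. No single gene passed: 0 of 80 had a limma adjusted p under 0.05, where 2.07% of all genes did (0.349% higher and 1.72% lower). At an unadjusted p under 0.05, 34 subunit genes were higher in replicate 1 (background 9.61% of all genes) and 1 was lower, Cox6b2 (background 14.5%). Both replicate 1 libraries lay above all of the other 4 for 48 of the 80 genes (background 18.7%) and below all of them for 1 (background 21.3%). These backgrounds are over all genes tested, whose median was 9.82 FPKM against 110 for the subunit genes. Counts for genes of like level and length are given below. The direction was the same in all 21 alternative analyses for 49 of the 80 genes, each of them higher in replicate 1. Some alternatives could not change a direction: the filters and the fit without the genotype term keep each gene's difference. No share over all genes is given for this count or for the next. The median ratio of mean FPKM, replicate 1 over the others, was 1.28, and 17 genes reached 1.5.

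**Figure D2:**
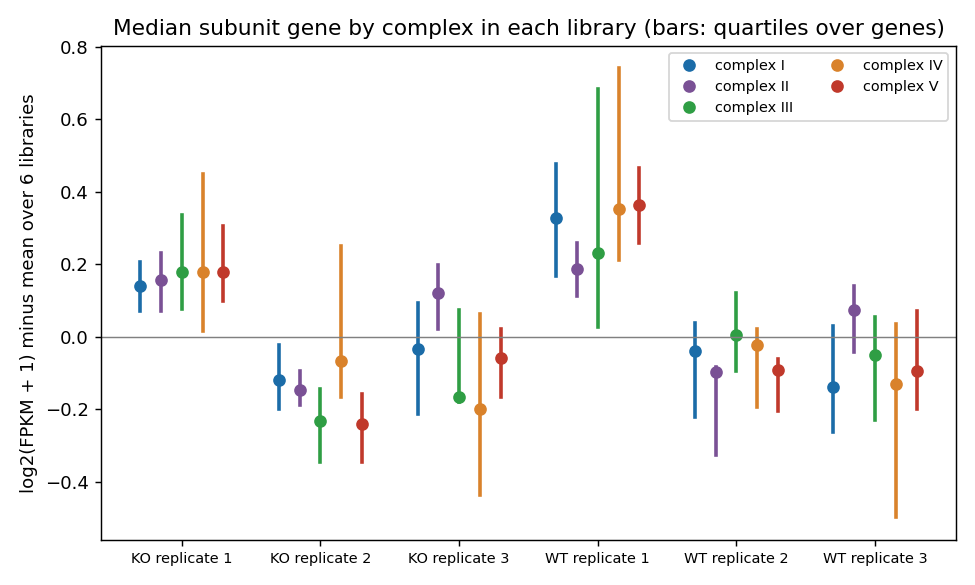
Median over the tested subunit genes of each complex of log2(FPKM + 1) minus the gene's mean over the 6 libraries, by library (points, with bars from the lower to the upper quartile of genes). In KO replicate 1 the complex medians lie at 0.14 to 0.18 and in WT replicate 1 at 0.19 to 0.36, while in the other 4 libraries they lie at -0.24 to 0.12.

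The complexes had similar medians in this comparison: 0.36 for complex I (35 of 36 genes above 0), 0.26 for complex II (3 of 4), 0.29 for complex III (9 of 9), 0.40 for complex IV (13 of 14) and 0.37 for complex V (17 of 17). The difference was present within each genotype. In KO, replicate 1 was the highest of the 3 libraries for 53 of 80 genes (background 32.8%), with a median difference of 0.27. In WT it was the highest for 69 (background 41.1%), with a median of 0.45. In 50 genes it was the highest in both (background 23.1%). The median assembled transcript was 1395 nt in KO replicate 1 and 438 nt in WT replicate 1. Transcripts under 300 nt made up 4.34% and 36.8% of these assemblies, against 2.16% to 6.61% in the others. The part of assembly differences in the replicate 1 result was not tested.

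**Figure D3:**
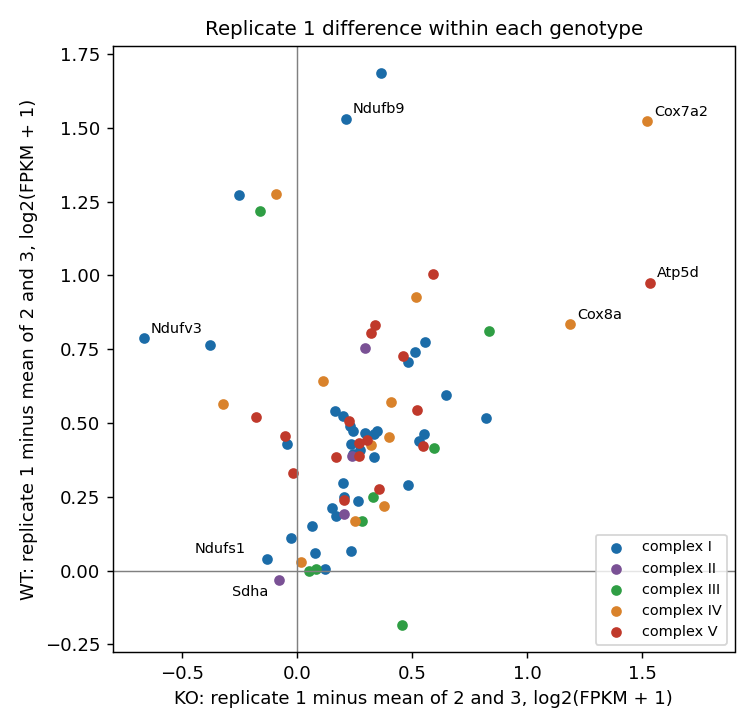
Replicate 1 minus the mean of replicates 2 and 3 in log2(FPKM + 1), in KO (horizontal axis) and in WT (vertical axis), for the 77 tested subunit genes above 0 in all 6 libraries, coloured by complex. Most genes lie to the right of 0 and above 0, Cox7a2, Atp5d and Cox8a lie far from it on both axes, and Sdha and Ndufs1 lie near the origin.

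Cox7a2, the widely expressed isoform of a small complex IV subunit (ENSMUSG00000032330.7, mm10 chromosome 9, 79755361 to 79759878, minus strand), had the smallest p. It had 194 FPKM in KO replicate 1 against 62.6 and 71.4 in the other KO libraries, and 235 FPKM in WT replicate 1 against 60.3 and 109. Both replicate 1 libraries lay above the other 4, and the difference was 1.52 ± 0.25 SE (limma adjusted p = 0.0602). Atp5d, the delta subunit of the ATP synthase's central stalk (ENSMUSG00000003072.15, chromosome 10, 80138632 to 80145818, plus strand), had 185 FPKM against 54.9 and 72.9 in KO and 183 against 76.6 and 111 in WT. Here too the replicate 1 libraries did not overlap the others (1.25 ± 0.24 SE, limma adjusted p = 0.0694). Cox8a, another small complex IV subunit, had 587 FPKM against 362 and 183 in KO and 722 against 440 and 371 in WT (1.01 ± 0.31 SE, limma adjusted p = 0.145).

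The 3 c-ring genes of the ATP synthase also had their highest values in replicate 1. Atp5g3 had 299, 208 and 226 FPKM in KO and 374, 220 and 231 in WT (0.59 ± 0.12 SE). Atp5g2 had 236, 153 and 175 in KO and 274, 201 and 175 in WT (0.53 ± 0.12). Atp5g1 had 32.7, 22.9 and 20.01 in KO and 42.6, 24.03 and 17.9 in WT (0.80 ± 0.17), but -0.31 when averaged over assembled bases only, with 52.6% of its exonic bases assembled in WT replicate 1 and 10.8% to 11.2% in the others. In all 3 genes both replicate 1 libraries lay above the other 4 (limma adjusted p = 0.0717, 0.0896 and 0.0880 for Atp5g3, Atp5g2 and Atp5g1). The peripheral stalk gene Atp5h had a difference of 0.49 ± 0.11 SE.

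In complex I, Ndufa5 (0.41 ± 0.10 SE) and Ndufb8 (0.67 ± 0.16 SE) had the smallest p. Ndufb8, an accessory subunit of the membrane arm, had 51.4, 37.6 and 32.0 FPKM in KO and 60.5, 40.7 and 29.9 in WT, yet -0.82 over assembled bases only, with 68.9% and 41.6% of its bases assembled in replicate 1 and 18.7% to 19.0% elsewhere. The accessory subunits had a median of 0.36 (29 of 29 above 0) and the core subunits 0.23 (6 of 7). Among the core genes Ndufs7 had 71.1, 59.7 and 56.1 FPKM in KO and 75.8, 55.8 and 53.4 in WT (0.38 ± 0.09). Ndufs1 stood at -0.05 ± 0.16 and Ndufs3 at 0.07 ± 0.15, both with overlapping libraries. In complex II, Sdhb had 162, 138 and 137 FPKM in KO and 165, 133 and 119 in WT (0.31 ± 0.10), Sdhc stood at 0.20 ± 0.11 and Sdha at -0.06 ± 0.14. In complex III, Uqcrb (0.50 ± 0.14) and Uqcr11 (0.82 ± 0.23) had both replicate 1 libraries above the other 4, while Uqcrfs1 stood at 0.04 ± 0.15.

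Cox6b2 was the gene lower in replicate 1. It was listed at 0 and 0.773 FPKM in replicate 1 of KO and WT and at 2.07 to 3.87 FPKM in the other libraries (-1.59 ± 0.30 SE, limma adjusted p = 0.0691). Counting transcripts of any length, it had 3.53 and 4.99 FPKM in replicate 1 against 2.07 to 6.19, and the difference became 0.19. Its direction therefore depends on fragments under 300 nt.

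Level and length of a gene moved with the replicate 1 difference, in the subunit genes as in others. By mean FPKM, the median difference of the subunit genes was 0.25 at 1 to under 20 FPKM (6 genes), 0.13 at 20 to under 50 FPKM (6), 0.21 at 50 to under 100 (22), 0.36 at 100 to under 200 (27) and 0.50 at 200 or more (19). All other tested genes went from -0.05 at 1 to under 20 FPKM to 0.08, 0.16, 0.25 and 0.37 in the same 4 bands. Among genes at 50 FPKM or more with under 600 coding bases, the median was 0.43 for 49 subunit genes and 0.37 for 308 others. All 49 subunit genes and 268 of the 308 others lay above 0. Both replicate 1 libraries lay above the other 4 for 32 of the 49 and 162 of the 308. With 600 or more coding bases the median was 0.23 for 19 subunit genes and 0.16 for 831 others. Of these, 18 of 19 and 619 of 831 lay above 0. Both replicate 1 libraries lay above the other 4 for 12 of 19 and 322 of 831. Across the 77 tested subunit genes above 0 in all libraries, Pearson's r between the difference and log2 coding length was -0.39 (Spearman's rho -0.38), and across 11668 other genes it was -0.28 (rho -0.36). These are correlations across genes that share the same 6 libraries. The part of level and length in the result was not tested.

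**Figure D4:**
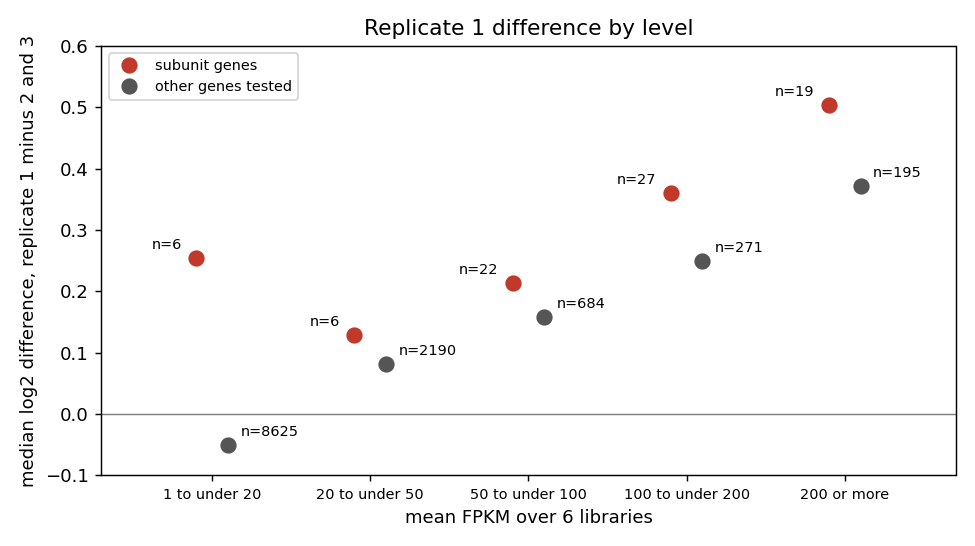
Median log2 difference of replicate 1 from replicates 2 and 3 (vertical axis) in bands of mean FPKM (horizontal axis), for tested subunit genes (red) and other tested genes (grey), with the number of genes at each point. Other genes go from -0.05 in the lowest band to 0.37 in the highest, and the subunit genes lie at 0.13 to 0.50, above the others in each band.

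Lists of related mitochondrial genes had replicate 1 medians of 0.06 to 0.26. Of the mitochondrial ribosomal proteins, 69 of 77 lay above 0 in replicate 1 with a median of 0.26. Among them 1 was called higher (background 0.349% of all genes), Mrpl24 (1.69, limma adjusted p = 0.0286). Assembly factors of complexes II to V had 29 of 35 above 0 and a median of 0.20. Here too 1 was called higher (background 0.349%), the complex IV factor Cox20 (1.97, adjusted p = 0.0399). The 17 complex I assembly factors had 9 above 0 and a median of 0.07. Tricarboxylic acid cycle and pyruvate dehydrogenase genes had 13 of 19 above 0 (median 0.11), electron carriers and other ubiquinone reductases 10 of 17 (0.06) and regulators of mitochondrial biogenesis 8 of 12 (0.09), with 0 called in each. Cycs, the mobile electron carrier cytochrome c, was at 0.53 (adjusted p = 0.0634), and the coactivator Ppargc1a at -0.34 (adjusted p = 0.309). Outside the mitochondrion, 76 of 79 cytosolic ribosomal protein genes lay above 0, with a median of 0.53 and 0 called. For genotype, 0 genes of these lists were called, and their medians were -0.05 to 0.03.

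The 13 subunit genes of the mitochondrial genome could not be read beside the nuclear ones. All 11 of them that were tested were listed at 0 in 4 libraries, KO replicate 1 and the 3 WT libraries, and took the value of long assembled transcripts in KO replicates 2 and 3. Their test gave 0 calls in either comparison.

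Markers of cell types and of cycling cells also differed between replicate 1 and the other libraries. Of 16 proliferation markers 7 lay above 0, with a median of -0.57, and 5 were called lower (background 1.72% of all genes). Mki67 (-2.33, limma adjusted p = 0.00655), Aurka (-1.09, 0.0357) and Ccnb2 (-1.56, 0.0410) were among these 5. Both replicate 1 libraries lay above the other 4 for 3 of the 16 markers and below them for 9. Of 8 tested astrocyte markers 1 lay above 0 (median -0.95), and 2 were called lower (background 1.72%), Aldoc (-1.05, 0.0361) and Slc1a2 (-1.08, 0.0494). Summed astrocyte marker FPKM was 186 to 243 in replicate 1 and 453 to 742 in the others. OPC markers had 10 of 15 above 0, with sums of 1614 to 1742 in replicate 1 and 1245 to 1656 in the others. Neuron and neuroblast markers had 7 of 10 above 0 (median 0.35, 0 called), with sums of 213 to 328 FPKM in replicate 1 and 151 to 212 in the others. The 213 FPKM of KO replicate 1 was thus next to the highest of the others, and only WT replicate 1 stood apart. Of 6 erythroid markers 4 were at 0 in all libraries and 1 was tested, Hbb-bs (1.95, adjusted p = 0.0801), and the sums were 104 to 165 FPKM in replicate 1 and 21.8 to 51.3 in the others. The sums of oligodendrocyte, microglia and vascular or meningeal markers overlapped between replicate 1 and the others, with 4 of 11, 3 of 9 and 6 of 9 markers above 0. Among them the microglial gene Trem2 was called lower (-1.20, adjusted p = 0.0399, background 1.72%) and the endothelial gene Cdh5 higher (0.92, adjusted p = 0.04997, background 0.349%). For genotype, 9 of 9 tested microglia and macrophage markers were above 0 in KO, with 0 called and sums of 158 to 289 FPKM in KO against 90.5 to 130 in WT. The part of these cell markers in the subunit gene values was not tested.

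The replicate 1 difference was also set beside the promoter letters, as a description with no test. The median was 0.37 for the 17 tested genes with NRF1 letters and 0.36 for the 49 without, 0.43 for the 16 with ETS letters and 0.36 for the 50 without, and 0.38 for the 11 with YY1 letters and 0.36 for the 55 without. The genes with ETS letters also had a higher median coding-base level, 268 FPKM against 144 FPKM. Of the printed genes, Cox6a1, with 635, 502 and 390 FPKM in KO and 617, 346 and 303 in WT, was at 0.72 ± 0.18 SE, while Sdha, with 3 NRF1 matches, was at -0.06 ± 0.14.

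A test of whether the replicate 1 difference itself differed between genotypes, which had 2 residual degrees of freedom, called 1 of 80 subunit genes, Uqcr10 (limma adjusted p = 0.0192), where 0.299% of all genes were called. It rests on the listed zeros of KO replicates 2 and 3, and 0 subunit genes were called when transcripts of any length were counted.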

How the data were processed

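RNA-seq libraries of OPCs from 3 Gde3 KO and 3 Gde3 WT samples were used. The submitters' processing notes name Cufflinks 2.2.1, Cuffdiff 2.2.1, TopHat2 2.1.1 and FastQC, with mm10 as the build. Each deposited file holds 1 library's assembly with an FPKM for each transcript. Other measures in the deposited files were not tested. Read counts were not used here, so depth is relative.

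Transcripts of 300 nt or more, unstranded or on the strand of the gene, were matched by position to GENCODE M21 basic genes. FPKM was summed at each exonic base that no other gene shares and averaged over at least 200 such bases, so a value falls where part of a gene is not assembled. Levels between genes used coding bases of the principal transcript and transcripts of any length, a measure added after seeing the data. Genes averaging at least 1 FPKM were tested on log2(FPKM + 1), which understates the change of low genes, with limma 3.58.1 in R 4.3.3 (trend, two-sided, Benjamini-Hochberg at 0.05 over all 12045 genes). Genotype was the only term for KO against WT, and replicate 1 against 2 and 3 had genotype as a second term. The code was tested on simulated data.

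The subunit genes, lists and comparisons were chosen with earlier results of these data known. Named genes are the core subunits, called genes (up to 10 per direction), the 2 smallest p per complex and comparison, genes at 5 FPKM or more listed at 0 in a library, and isoform pairs; of other lists, up to 3 with the smallest p. Ndufa13, Ndufv3, Ndufa12, Uqcrq, Uqcrh, Cox8a and Atp5g1 to Atp5g3 in the replicate comparison, Atp5h, Cox6a1, Atp5s, Ndufs7 and Ppargc1a were named after their values were seen. Values of 1 core subunit gene are not reported here.

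Deviations from the group means correlated across genes between KO and WT libraries of the same number (r = 0.369, 0.197 and 0.293) and less between other pairs (-0.277 to 0.0234). The numbers, taken from the titles, may therefore pair the samples. The main genotype fit did not use this pairing, so its differences, SEs and p-values are unpaired. A fit with the number as a block is given as an alternative.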

Additional observations from a re-analysis of the deposited data

Results flagged for a closer look

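Uqcr10 was the subunit gene whose replicate 1 difference differed between the genotypes (limma interaction adjusted p = 0.0192). In KO, replicate 1 had 257 FPKM and replicates 2 and 3 were listed at 0, while the WT libraries had 250, 150 and 204 FPKM. With transcripts of any length, KO replicates 2 and 3 had 213 and 225 FPKM, and the gene was not called.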

How the results depend on the processing

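Each result was recomputed under 22 alternatives for genotype, 21 for replicate 1 and 18 for the interaction, covering pseudocounts, filters, scaling, other gene values, weights, the block and left-out libraries. Leaving out both replicate 1 libraries and the value over coding bases were chosen after seeing the data. For genotype, 0 subunit genes were called except 1 (Uqcr10) without KO replicate 1 and 1 (Uqcr10) without both replicate 1 libraries. Leaving out 1 library gave 0 to 1 calls and a median of -0.13 to 0.06. With the replicate block 0 subunit genes were called, as in the main fit. The design is balanced, so the block changes SEs and p-values. It cannot change the differences or their median of -0.06. The replicate 1 median was above 0 in all 21 alternatives: 0.14 with quantile normalization, and 0.27 to 0.45 leaving out 1 library (0.27 without WT replicate 1, 0.45 without KO replicate 1). The values without a replicate 1 library are the differences within KO and within WT given above. The filters and the fit without the genotype term keep each gene's difference by construction. Summing FPKM over transcripts moved the median of all genes to 0.53, above the 0.38 of the subunit genes. Calls higher in replicate 1 numbered 2 with array weights (Atp5d, Cox7a2), 3 without the genotype term (Atp5g1, Atp5g3, Cox7a2) and 0 to 1 leaving out 1 library (Uqcr10 without WT replicate 1). Calls lower numbered 1 (Cox6b2) with array weights and 1 without the genotype term. The interaction count was 0 with no length minimum, over coding bases and without any of KO replicates 2 and 3 and WT replicates 2 and 3, and 1 by the sum over transcripts, where the gene was Atp5a1. Without either replicate 1 library it could not be fitted.

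Directions of genes near 0 turned easily: 49 of 80 kept theirs in all replicate 1 alternatives and 16 of 80 in all genotype alternatives. Both counts include alternatives that cannot turn a direction, such as the filters. Among core genes that turned, Atp5a1 had the widest ranges, -0.10 to 6.94 for replicate 1 and -4.33 to 0.08 for genotype. Others had replicate 1 ranges of -0.16 to 1.15 (Ndufs1), -0.23 to 0.15 (Sdha), -0.13 to 0.12 (Uqcrfs1) and -0.10 to 0.16 (Ndufs3). Their genotype ranges included -0.18 to 0.13 (Ndufs1), -0.13 to 0.08 (Sdha), -0.06 to 0.21 (Ndufs3) and -0.19 to 0.13 (Atp5b). For Sdhc and Ndufs8 the genotype ranges were -0.11 to 0.54 and -0.41 to 0.03. Of the genes named for their p or a listed 0, these reversed. In the replicate 1 comparison Ndufb8 was at -0.82 over assembled bases, Sdhc at -0.17 and Cox7b at -0.0011 by the sum, and Cox6b2 at 0.19 with no length minimum, 0.69 by the sum and 0.56 over coding bases. For genotype, Uqcr10 was at 0.23 with no length minimum and 0.25 by the sum and over coding bases. Leaving out 1 library, Sdhd ranged from -0.15 (without WT replicate 2) to 0.52, Sdhb from -0.029 (without WT replicate 3) to 0.21, with -0.0020 without KO replicate 1, and Cox7b from -2.80 to 2.07 (without KO replicate 3), with 1.07 and 0.86 without WT replicates 1 and 2. For Uqcr10 and Cox6b2 the length minimum itself makes the difference. The values of Cox7b, with a main replicate 1 difference of 3.70, include listed zeros in KO replicate 3 and WT replicate 3. Those zeros also come from the length minimum. For the remaining genes the cause was not tested. No counts were used, so the limit that depth sets on single values is unknown.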
